A study of Mus musculus with 6 samples.

Results

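The genes described here are 32 genes known from hepatic stellate cells and fibroblasts, collagens left aside, measured in RNA of liver sinusoidal endothelial cells. They were found by symbol in the deposited gene table, where each of the 32 had 1 row among 22298 genes. Of the members, 15 are known from the quiescent stellate cell, 6 from the activated myofibroblast, and 11 are shared between both states or known from fibroblasts and pericytes in general. The series holds 6 libraries of wild-type mouse cells in 2 groups, named here by their titles: aging replicates 2, 3 and 5, and control replicates 1, 2 and 3. The study set mice of 24 months against mice of 8 weeks, but the age label gives 8 weeks for the libraries titled aging and 24 months for those of the control group, so the age of either group is not settled and each group name stands for its title only. The labels do not say how the cells were isolated or whether each library came from its own mouse, so the p-values below measure the spread between these libraries.

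Hepatic stellate cells lie between the sinusoidal endothelium and the hepatocytes and store vitamin A as retinyl esters in lipid droplets. In injured liver they lose these stores and become contractile, matrix-producing myofibroblasts, with smooth muscle actin as the usual marker of that change. Portal fibroblasts and the muscle cells of larger vessels express several of the same genes, and some matrix and growth factor genes of the stellate cell are also expressed by endothelium.

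Library totals ranged from 15999220 to 17871220 counts, and 1 count stood for 0.0562 to 0.0629 CPM, the count scaled to the library size after TMM adjustment. A gene was called changed at a Benjamini-Hochberg adjusted p under 0.05 over all 13096 genes tested with edgeR's quasi-likelihood test, and fold changes are those of aging over control. By that rule 5.59% of the tested genes were lower and 7.22% higher in aging. The summed level of 12 sinusoidal endothelial markers was 35039 to 38767 CPM in aging libraries and 34627 to 42517 CPM in control libraries. None of the 12 passed by edgeR or DESeq2 (4 had an unadjusted p under 0.05, with Oit3 the smallest at an edgeR adjusted p of 0.0937). All aging libraries lay below all control libraries for 3 of the 12 and above them for 2, where 18.8% and 19.2% of all tested genes did so. Lyve1 had the largest shift, a log2 fold change of -1.25 ± 0.60 (SE; edgeR adjusted p = 0.207). It had 244, 67.7 and 462 CPM in aging replicates 2, 3 and 5, against 551, 629 and 662 CPM in control replicates 1, 2 and 3. The summed level of 10 neutrophil markers was 1597 to 4536 CPM in aging libraries, against 232 to 517 CPM in control libraries; 6 of the 10 rose and none fell, Retnlg, S100a9, Cxcr2 and S100a8 having the smallest p, and the part of this difference in the results below was not tested.

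Of the 32 members, 25 had enough counts to be tested. Of these 25, 7 fell and none rose in aging by edgeR, and the counts by DESeq2 were the same. At an unadjusted p under 0.05, 11 were lower and 0 higher. The share of all tested genes at that unadjusted p was not taken, so this count and those of other lists have no such measure beside them. The 7 were Reln, Lrat, Vipr1 and Colec10 of the quiescent members, Postn of the activated ones, and Rgs5 and Dcn of the shared ones. All 3 aging libraries lay below all 3 control libraries for 13 of the 25, where 18.8% of all tested genes did so, and above them for 1, where 19.2% of all tested genes did so. The median log2 fold change was -0.56 over the 25 tested members and -0.01 over all tested genes. Which cells the RNA of each member came from was not tested. In bulk RNA, fewer stellate cells among those sequenced, less RNA per such cell and a lower level in the endothelial cells themselves cannot be told apart.

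The members did not form a group of like abundance. Per transcript length, biglycan (Bgn, ENSMUSG00000031375) averaged 473 ± 70.9 FPKM in aging libraries and 415 ± 22.5 FPKM in control libraries (SD, n = 3 each), where FPKM is the authors' value, scaled for transcript length and depth. Decorin (Dcn, ENSMUSG00000019929), a proteoglycan used as a stellate and fibroblast marker, averaged 6.13 ± 0.706 FPKM in aging libraries and 10.9 ± 1.75 FPKM in control libraries. The FPKM of Bgn was thus 77.2 times that of Dcn in aging and 38.1 times that of Dcn in control libraries. Gas6, Prelp, Ecm1 and Hgf came next to Bgn, with mean FPKM from 28.2 to 161 in aging and from 31.3 to 170 in control libraries, and every other member stayed under 11 FPKM in both group means. At the low end, the mean FPKM of the receptor gene Pdgfrb was 0.0800 in aging and 0.130 in control libraries. The desmin gene Des averaged 0.283 FPKM in aging and 0.320 FPKM in control libraries. Gfap had no count in any aging library, and 2, 1 and 2 counts in control replicates 1, 2 and 3. Thus Pdgfrb, Des and Gfap, all classical stellate markers, were scarce or near 0 in all 6 libraries, while 5 members were abundant.

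**Figure D1:**
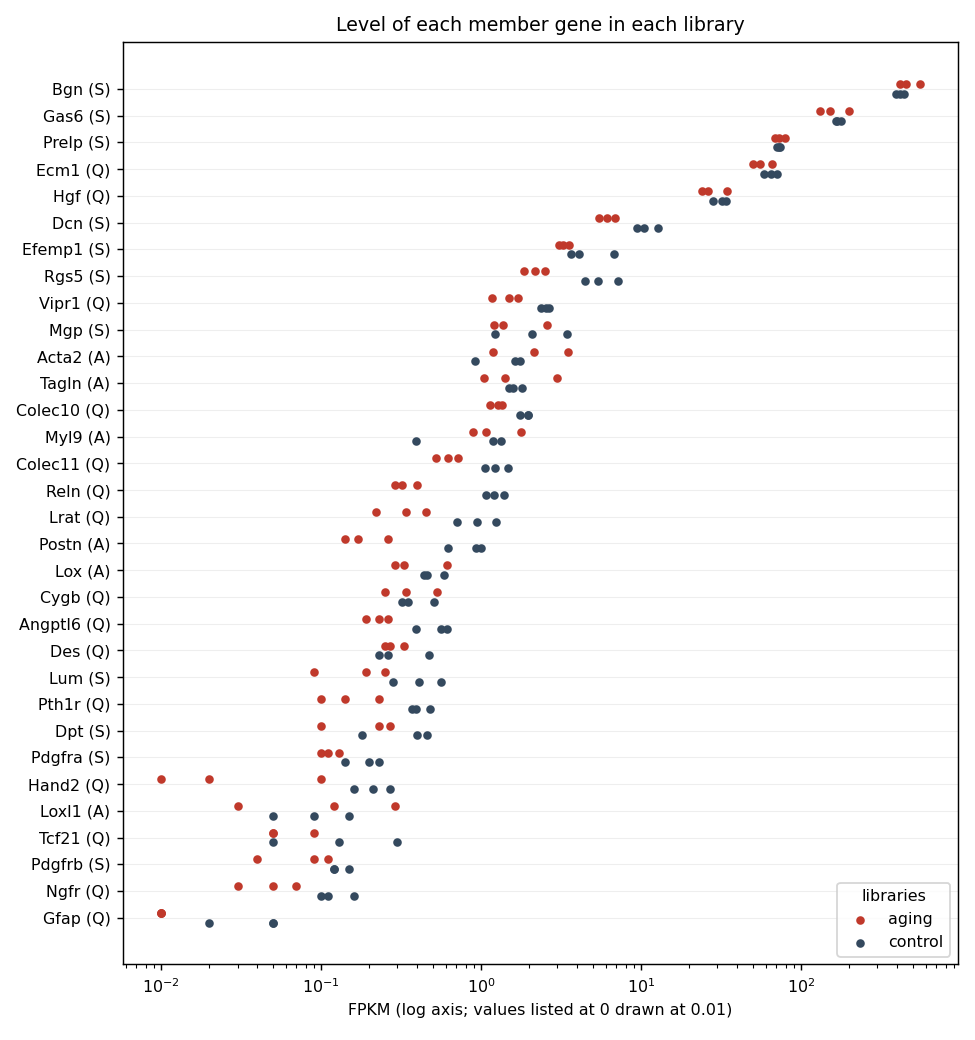
FPKM of each of the 32 member genes in each library on a log axis, ordered by mean level, with aging libraries drawn above control libraries in each row; the letter after each symbol gives the class (Q quiescent stellate, A activated myofibroblast, S shared and fibroblast), and values listed at 0 are drawn at 0.01. Bgn, Gas6, Prelp, Ecm1 and Hgf stand apart at the top, and the colours of the 2 groups separate mainly in the middle and lower rows.

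The 250 bases before the transcription start are shown for 3 genes that fell and for 2 contractile genes that did not pass, to set the promoters of both kinds side by side. RefSeq sequences of GRCm38.p6 were used; the build of the deposited counts is not given in the sources used here, and these coordinates belong to RefSeq. Capitals mark GGGCGG (the GC box), CAGCTG (an E-box), TATAAA and the CArG box, the site of serum response factor. Each was looked for on both strands, with adjoining matches run together. The CArG box was taken only in its strict form, CCWWWWWWGG with W for A or T. Sequences close to that form were not marked, such as ccctatatgg and ccttgtttgg in the Acta2 window. The windows are Reln at chr5:22344706-22344955 (minus strand), Lrat at chr3:82903975-82904224 (minus strand), Rgs5 at chr1:169655251-169655500 (plus strand), Acta2 at chr19:34255374-34255623 (minus strand) and Myl9 at chr2:156775214-156775463 (plus strand).
Reln: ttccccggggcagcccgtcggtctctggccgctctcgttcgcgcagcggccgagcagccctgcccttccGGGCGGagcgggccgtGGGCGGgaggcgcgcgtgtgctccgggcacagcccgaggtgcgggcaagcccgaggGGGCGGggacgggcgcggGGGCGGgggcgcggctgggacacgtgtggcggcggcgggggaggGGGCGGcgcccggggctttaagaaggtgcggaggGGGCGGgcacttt
Lrat: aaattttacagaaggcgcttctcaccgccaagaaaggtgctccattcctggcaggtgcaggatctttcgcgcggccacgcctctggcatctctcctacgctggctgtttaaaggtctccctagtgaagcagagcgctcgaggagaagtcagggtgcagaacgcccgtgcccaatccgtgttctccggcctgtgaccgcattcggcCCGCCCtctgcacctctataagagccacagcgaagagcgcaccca
Rgs5: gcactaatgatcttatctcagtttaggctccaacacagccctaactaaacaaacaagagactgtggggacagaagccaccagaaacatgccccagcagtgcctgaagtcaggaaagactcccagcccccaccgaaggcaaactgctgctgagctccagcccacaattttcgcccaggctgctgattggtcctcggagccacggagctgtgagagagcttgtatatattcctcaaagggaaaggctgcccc
Acta2: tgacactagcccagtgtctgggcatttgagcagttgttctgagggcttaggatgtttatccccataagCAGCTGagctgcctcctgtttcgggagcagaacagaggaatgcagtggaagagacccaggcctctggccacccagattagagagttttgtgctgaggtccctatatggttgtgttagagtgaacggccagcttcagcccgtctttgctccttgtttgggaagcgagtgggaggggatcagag
Myl9: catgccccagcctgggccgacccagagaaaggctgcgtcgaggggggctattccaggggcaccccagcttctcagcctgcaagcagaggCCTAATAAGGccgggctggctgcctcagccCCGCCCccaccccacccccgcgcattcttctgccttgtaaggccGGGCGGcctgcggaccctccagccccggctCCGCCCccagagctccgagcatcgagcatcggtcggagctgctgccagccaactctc

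The 3 windows of genes that fell differed in base composition. The window of Reln was 80.0% G and C with 37 CpG pairs and 6 matches to GGGCGG, that of Lrat was 59.2% G and C with 18 CpG pairs and 1 match, and that of Rgs5 was 53.6% G and C with 4 CpG pairs and no match to any of the 4 motifs. Over all 32851 windows of this length the median was 52.4% G and C with 6 CpG pairs. Acta2 had the same 53.6% and 4 CpG pairs as Rgs5. Windows were found for 23 of the 32 members, 27 windows in all because some genes have several starts. GGGCGG was in 13 of these 27 windows and in 32.7% of all windows, and CAGCTG in 6 and in 13.0%. TATAAA was in 2 and in 12.4%, and the strict form of the CArG box in 1, that of Myl9, and in 1.47%. These are matches of letters, not measured binding sites.

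Among the quiescent members, reelin (Reln, ENSMUSG00000042453), a secreted glycoprotein that marks stellate cells in liver, had the smallest adjusted p. It stood at 4.66, 3.66 and 3.43 CPM in aging replicates 2, 3 and 5, against 11.6, 15.9 and 13.6 CPM in control replicates 1, 2 and 3. The groups lay far apart, with even the lowest control library well above the highest aging library. Reln fell 3.49-fold, a log2 fold change of -1.80 ± 0.19 (SE; edgeR adjusted p = 0.00456), and it passed in each of the 6 fits that left out 1 library.

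Lrat (ENSMUSG00000028003), the enzyme that esterifies retinol for storage, had 1.84, 1.18 and 2.50 CPM in aging replicates 2, 3 and 5, against 6.32, 5.06 and 3.84 CPM in control replicates 1, 2 and 3. Its log2 fold change was -1.46 ± 0.33 (SE; edgeR adjusted p = 0.0293), and the groups did not overlap. When 1 library was left out, Lrat passed only without aging replicate 5, and the edgeR adjusted p reached 0.0987 in the other 5 fits.

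Vipr1 (ENSMUSG00000032528), a receptor for vasoactive intestinal peptide, had 8.40, 5.73 and 7.62 CPM in aging replicates 2, 3 and 5, against 11.9, 13.0 and 11.6 CPM in control replicates 1, 2 and 3. Its log2 fold change was -0.75 ± 0.17 (SE; edgeR adjusted p = 0.0317), and the call did not hold when aging replicate 3 or any control replicate was omitted, with edgeR adjusted p values of 0.0704 to 0.118. The collectins are secreted lectins of innate immunity that bind microbial sugars. Colec10 (ENSMUSG00000038591) had 6.22, 5.20 and 6.05 CPM in aging replicates 2, 3 and 5, against 8.64, 9.05 and 8.12 CPM in control replicates 1, 2 and 3. Its log2 fold change was -0.56 ± 0.15 (SE; edgeR adjusted p = 0.0480), just past the threshold, and omitting any single library ended the call. The partner collectin Colec11 had 0.691, 0.886 and 0.814 CPM in aging replicates 2, 3 and 5, against 1.85, 1.46 and 1.64 CPM in control replicates 1, 2 and 3. Its groups did not overlap either, with a log2 fold change of -1.04 ± 0.29 (SE), yet its edgeR adjusted p of 0.0564 missed the threshold.

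Hgf (ENSMUSG00000028864), the hepatocyte growth factor, and Ecm1 (ENSMUSG00000028108), a secreted matrix protein that restrains latent TGF-beta in mouse liver, were far more abundant than the rest of this class. Hgf had 74.6, 79.7 and 110 CPM in aging replicates 2, 3 and 5, against 81.3, 93.1 and 99.7 CPM in control replicates 1, 2 and 3. Ecm1 had 72.9, 92.3 and 74.6 CPM in aging replicates 2, 3 and 5, against 85.3, 97.7 and 91.3 CPM in control replicates 1, 2 and 3. The groups overlapped for both genes, and neither passed, at a log2 fold change of -0.05 ± 0.16 for Hgf and -0.20 ± 0.11 for Ecm1 (SE).

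The remaining quiescent members were scarce, all with group means under 1 CPM. Angptl6, an angiopoietin-like secreted protein, had 0.403, 0.354 and 0.291 CPM in aging replicates 2, 3 and 5, against 0.894, 0.619 and 0.881 CPM in control replicates 1, 2 and 3 (edgeR adjusted p = 0.0883). Its groups did not overlap. For Des and the globin gene Cygb the groups overlapped, at a log2 fold change of -0.12 ± 0.39 for Des and -0.05 ± 0.41 for Cygb (SE). The transcription factor genes Hand2 and Tcf21, the neurotrophin receptor gene Ngfr, the parathyroid hormone receptor gene Pth1r and Gfap were below the count filter and not tested. Hand2 had 0, 4 and 1 counts in aging replicates 2, 3 and 5, against 10, 9 and 6 counts in control replicates 1, 2 and 3. Pth1r had 9, 5 and 2 counts in aging replicates 2, 3 and 5, against 17, 16 and 9 counts in control replicates 1, 2 and 3, so that its highest aging library equalled its lowest control library in counts but not in CPM (0.518 in aging replicate 2 against 0.567 in control replicate 3). Ngfr had 3, 4 and 2 counts in aging replicates 2, 3 and 5, against 9, 6 and 6 in control replicates 1, 2 and 3. Tcf21 had 1 to 6 counts per library, and its groups overlapped.

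Of the shared members, Rgs5 (ENSMUSG00000026678), a regulator of G protein signalling and a marker of pericytes, had 7.60, 8.86 and 10.6 CPM in aging replicates 2, 3 and 5, against 28.2, 22.2 and 18.3 CPM in control replicates 1, 2 and 3. It fell 2.54-fold, a log2 fold change of -1.35 ± 0.20 (SE; edgeR adjusted p = 0.00899), and like Reln it passed in each of the 6 fits that left out 1 library.

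Dcn and its relatives Lum, Prelp and Bgn belong to the small leucine-rich proteoglycans, which bind collagen fibrils or growth factors in the matrix. Dcn had 9.61, 12.1 and 11.1 CPM in aging replicates 2, 3 and 5, against 21.5, 18.3 and 16.7 CPM in control replicates 1, 2 and 3. It fell 1.73-fold (log2 fold change -0.79 ± 0.15, SE; edgeR adjusted p = 0.0168), and omitting control replicate 1 or control replicate 2 ended the call, at an edgeR adjusted p of 0.0561 and 0.0677. Lum had 0.230, 0.473 and 0.640 CPM in aging replicates 2, 3 and 5, against 1.31, 1.01 and 0.692 CPM in control replicates 1, 2 and 3, and did not pass (edgeR adjusted p = 0.138). The abundant members of the family went differently. Bgn had 1094, 1334 and 1043 CPM in aging replicates 2, 3 and 5, against 1009, 998 and 956 CPM in control replicates 1, 2 and 3. It was the only tested member with every aging library above every control library, at a log2 fold change of 0.23 ± 0.11 (SE), and it did not pass (edgeR adjusted p = 0.208). Prelp had 249, 286 and 273 CPM in aging replicates 2, 3 and 5, against 256, 255 and 264 CPM in control replicates 1, 2 and 3, and the groups overlapped.

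Gas6 (ENSMUSG00000031451), the vitamin K-dependent ligand of the receptors Tyro3, Axl and Mertk, had 389, 507 and 349 CPM in aging replicates 2, 3 and 5, against 406, 453 and 425 CPM in control replicates 1, 2 and 3. The groups overlapped and it did not pass. Efemp1, a fibulin of the extracellular matrix, had 6.22, 6.26 and 5.64 CPM in aging replicates 2, 3 and 5, against 11.7, 7.48 and 7.68 CPM in control replicates 1, 2 and 3 (edgeR adjusted p = 0.112). The PDGF receptor genes, through which stellate cells and fibroblasts are driven to divide, were scarce. Pdgfra had 13, 11 and 10 counts in aging replicates 2, 3 and 5, against 20, 26 and 13 in control replicates 1, 2 and 3. Pdgfrb had 4, 10 and 9 counts in aging replicates 2, 3 and 5, against 10, 12 and 13 in control replicates 1, 2 and 3. Neither passed. The groups did not overlap in CPM for either gene, but in counts both genes tied between the highest aging and the lowest control library. Mgp, an inhibitor of calcification, overlapped between the groups, and so did Dpt, the dermatopontin gene, which was not tested.

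**Figure D2:**
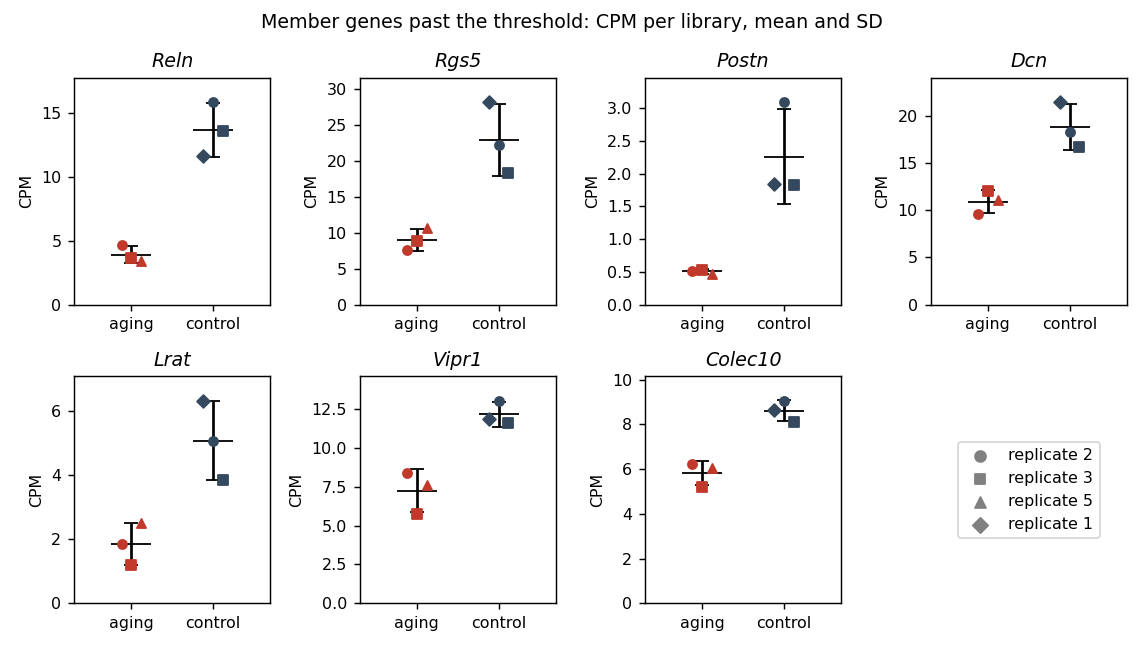
CPM in each library for the 7 member genes past the threshold, with aging left of control in each panel; marker shapes give the replicate number of the title, horizontal bars the mean and whiskers the SD of 3 libraries. In all 7 panels every aging library lies below every control library, and the lowest control value stands furthest above the highest aging value, relative to level, for Postn and Reln.

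Among the activated members, Postn (ENSMUSG00000027750), a matricellular protein deposited during matrix remodelling, went down. It had 9, 9 and 8 counts in aging replicates 2, 3 and 5, against 31, 55 and 29 counts in control replicates 1, 2 and 3. On the CPM scale that was 0.505 ± 0.0351 in aging and 2.26 ± 0.725 in control libraries (SD, n = 3 each). The log2 fold change of -2.15 ± 0.36 (SE; edgeR adjusted p = 0.0127) was the most negative of the tested members, and omitting control replicate 2 took the edgeR adjusted p to 0.0565.

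None of the contractile members passed in either direction. Acta2 (ENSMUSG00000035783), the smooth muscle actin that defines myofibroblasts, had 4.37, 7.09 and 2.50 CPM in aging replicates 2, 3 and 5, against 2.80, 3.32 and 1.32 CPM in control replicates 1, 2 and 3. The groups overlapped, and the log2 fold change of 0.90 ± 0.46 (SE) did not pass (edgeR adjusted p = 0.227). Tagln, an actin-binding protein of smooth muscle, had 1.67, 4.73 and 2.33 CPM in aging replicates 2, 3 and 5, against 2.26, 2.53 and 2.90 CPM in control replicates 1, 2 and 3. Its log2 fold change was 0.18 ± 0.39 (SE), and -0.35 without aging replicate 3. Myl9, a regulatory myosin light chain, had 1.21, 2.01 and 1.05 CPM in aging replicates 2, 3 and 5, against 1.43, 1.35 and 0.441 CPM in control replicates 1, 2 and 3. The groups overlapped for Tagln and Myl9 and neither passed.

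Lox and Loxl1 encode enzymes that crosslink collagen and elastin. Lox had 26, 49 and 23 counts in aging replicates 2, 3 and 5, against 44, 36 and 35 counts in control replicates 1, 2 and 3, and did not pass. Loxl1, with 2 to 16 counts per library, was not tested. On the CPM scale all 6 activated members had their highest aging value in replicate 3, as had 19 of all 32 members, 5 of the 15 quiescent ones among them. For Postn this rests on library size alone, since aging replicates 2 and 3 tied at 9 counts and its FPKM was highest in aging replicate 2. Myh11, the smooth muscle myosin, which was named after its values were seen, had 0.633, 4.78 and 1.22 CPM in aging replicates 2, 3 and 5, against 3.69, 2.14 and 1.32 CPM in control replicates 1, 2 and 3. The summed fibrillar and associated collagen genes stood at 74.1, 163 and 55.7 CPM in aging replicates 2, 3 and 5, against 136, 125 and 145 CPM in control replicates 1, 2 and 3. Most of this sum came from Col5a2 and Col6a3, at 81.7 and 51.5 CPM in aging replicate 3, where Col1a1 had 1.83 CPM. Aging replicate 3 was therefore the highest aging library for the activated members other than Postn, for Myh11 and for the collagen sum, and whether larger vessels contributed to it was not tested.

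The comparison of the quiescent with the activated members gave 4 of 10 tested genes lower among the quiescent and 1 of 5 among the activated members. Over all tested genes 5.59% were lower. Of the 4 quiescent calls only Reln held in all 6 fits that left out 1 library. Lrat held in 1, Vipr1 in 2 and Colec10 in 0 of these fits, and Postn of the activated members in 5. All 10 tested quiescent members had a negative log2 fold change, with a median of -0.65, and 2 of 5 tested activated members did, with a median of 0.18. Over all tested genes 50.7% were negative. The sign was not stable for Hgf, Des and Cygb of the quiescent members, nor for Tagln and Lox of the activated ones. Each of these changed sign in at least 1 alternative fit. A negative sign throughout was not particular to the quiescent members, since all 9 Kupffer cell markers had it too, with a median of -0.19. The summed CPM of the quiescent members was 172, 192 and 208 in aging replicates 2, 3 and 5, against 213, 240 and 234 in control replicates 1, 2 and 3. The summed CPM of the activated members was 9.67, 18.2 and 7.79 in aging replicates 2, 3 and 5, against 11.4, 12.5 and 9.002 in control replicates 1, 2 and 3. The quiescent sums did not overlap between the groups, and the activated sums did.

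The ratio of the quiescent to the activated sum was 17.8, 10.5 and 26.7 in aging replicates 2, 3 and 5, against 18.6, 19.2 and 26.0 in control replicates 1, 2 and 3. The aging libraries lay on both sides of the control libraries, so the ratio did not separate the groups. Hgf and Ecm1 made up 78.4% to 89.6% of the quiescent sum in each library. Without these genes, an alternative chosen after the values were seen, the quiescent sum was 24.3, 19.9 and 23.0 CPM in aging replicates 2, 3 and 5, against 45.9, 49.0 and 42.7 CPM in control replicates 1, 2 and 3. The ratio to the activated sum was then 2.51, 1.09 and 2.95 in aging replicates 2, 3 and 5, against 4.01, 3.93 and 4.74 in control replicates 1, 2 and 3, with no overlap. Most of the quiescent sum without Hgf and Ecm1 came from Reln, Lrat, Vipr1 and Colec10, the quiescent members called lower above. The lower sum thus largely restates those calls, and the ratio is no separate support. A score over chosen genes was given no test.

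**Figure D3:**
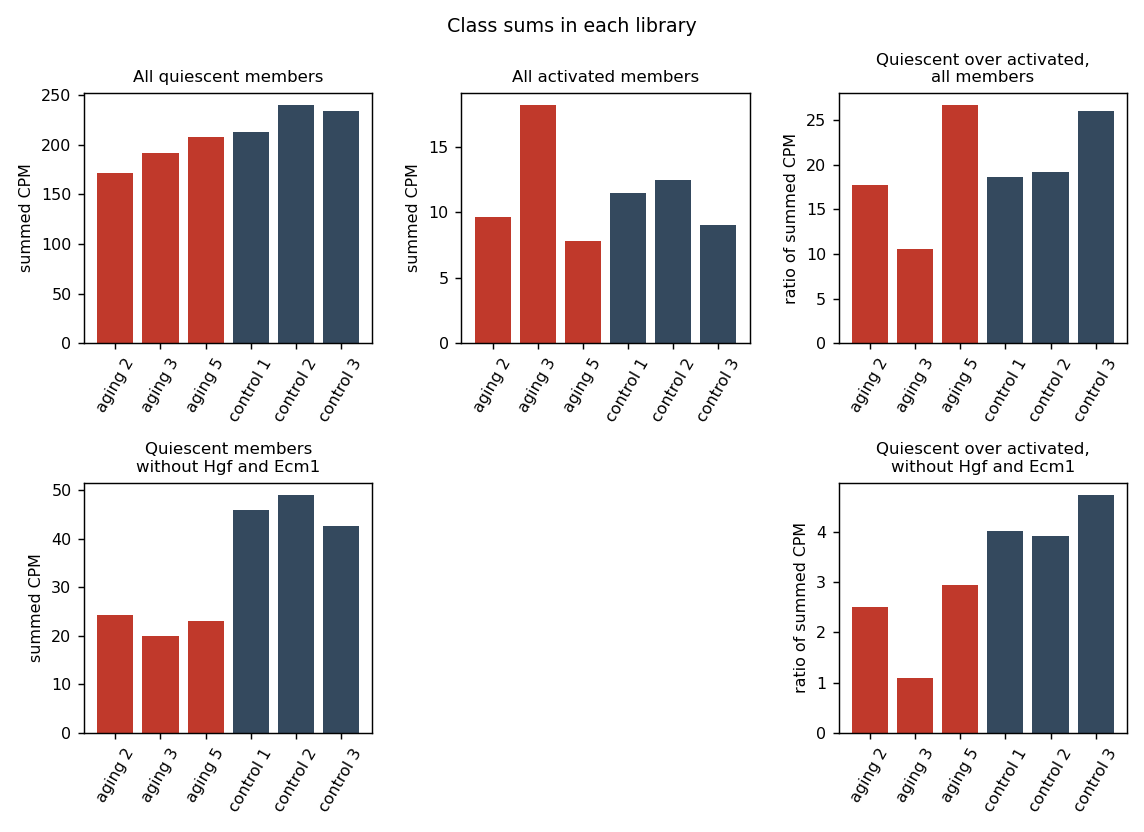
Summed CPM of the quiescent and the activated members and the ratio of the sums in each of the 6 libraries, with aging libraries left of control libraries; the lower row leaves Hgf and Ecm1 out of the quiescent sum, and all bars start at 0. Over all members the aging ratios run from 10.5 to 26.7 around the control ratios of 18.6 to 26.0. Without Hgf and Ecm1 they run from 1.09 to 2.95, below the control range of 3.93 to 4.74. Hgf and Ecm1 were left out after the values were seen, and most of the quiescent CPM left is of members called lower.

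**Figure D4:**
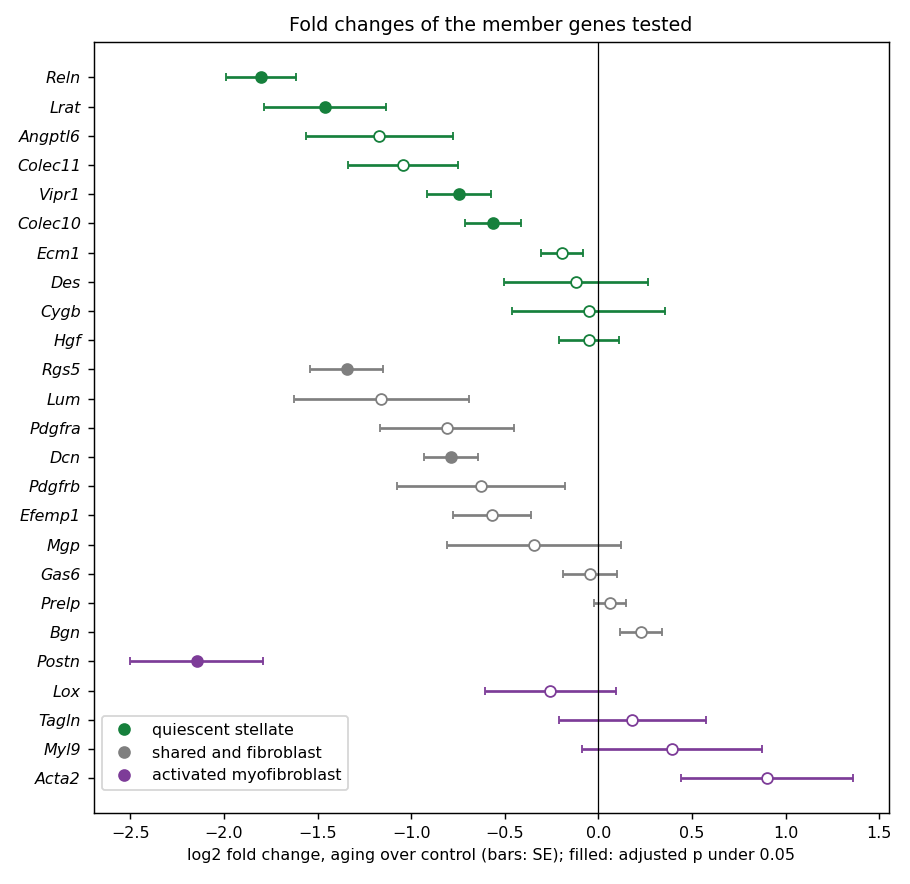
Log2 fold change of aging over control with its SE for the 25 tested members, grouped by class, with filled points for adjusted p under 0.05. Every tested quiescent member lies left of 0, with Hgf, Cygb and Des nearer to 0 than their SE. Among the activated members Postn lies far left while Acta2, Tagln and Myl9 lie right of 0.

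Retinoid handling, a main task of the quiescent stellate cell, was followed in 20 further genes. Of 17 tested, 3 rose and 1 fell, with a median log2 fold change of -0.13. Over all tested genes 7.22% rose and 5.59% fell. Dgat1, which makes triglyceride and can esterify retinol, rose by 1.60 ± 0.23 on the log2 scale (SE), and the lipid droplet protein Plin2 by 0.42 ± 0.09. Aldh1a1, a retinaldehyde dehydrogenase, had a log2 fold change of -0.64 ± 0.11 (SE) and passed.

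Of 14 genes for ligands and receptors that partner the members, 11 were tested, 1 fell and none rose by edgeR (2 were higher at an unadjusted p under 0.05, and none by DESeq2, which called 2 lower). That gene was Tyro3, a receptor of Gas6, with 2.53, 2.24 and 2.33 CPM in aging replicates 2, 3 and 5, against 4.77, 4.27 and 3.65 CPM in control replicates 1, 2 and 3 (log2 fold change -0.84 ± 0.21, SE; edgeR adjusted p = 0.0432). Of 15 other genes used as stellate markers, 10 were tested and 2 fell. Beside the counts of both lists, 5.59% of all tested genes fell and 7.22% rose. Bambi, a decoy receptor that dampens TGF-beta signalling, averaged 9.45 ± 2.74 CPM in aging and 25.1 ± 1.53 CPM in control libraries (SD, n = 3 each; edgeR adjusted p = 0.00965), and the chemokine Cxcl12 averaged 5.74 ± 1.14 CPM in aging and 11.02 ± 0.873 CPM in control libraries (edgeR adjusted p = 0.0184). Endothelial cells are known to express both as well.

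The calls among markers of neighbouring cell types stand beside 5.59% of all tested genes lower and 7.22% higher in aging. Few calls in lists this short do not show that those cells were unchanged. Of 10 vascular smooth muscle genes 4 were tested and Smtn fell (log2 fold change -0.66 ± 0.10, SE). Smtn averaged 96.2 CPM in aging and 152 CPM in control libraries, against 2.21 and 2.38 CPM for Myh11 of the same list. Which cells the RNA of Smtn came from was not tested. Of 10 portal fibroblast genes 5 were tested, and Pi16 rose, with 51.2, 34.3 and 20.9 CPM in aging replicates 2, 3 and 5, against 8.82, 7.09 and 5.60 CPM in control replicates 1, 2 and 3. The list as a whole did not rise, as 3 of the 5 had a negative log2 fold change and the median was -0.12. Eln had a log2 fold change of -1.42 ± 0.57 (SE) and groups that did not overlap, but did not pass (edgeR adjusted p = 0.147). Which cells the RNA of Pi16 came from was not tested. Of 6 mesothelial genes 3 were tested and none passed by edgeR, by DESeq2 or at an unadjusted p under 0.05, Gpm6a having the smallest p (edgeR adjusted p = 0.339). Of 9 collagen genes Col14a1 fell, with 3.91, 9.81 and 4.77 CPM in aging replicates 2, 3 and 5, against 22.8, 21.9 and 24.0 CPM in control replicates 1, 2 and 3. Of 10 hepatocyte markers 1 fell and none rose by edgeR, while DESeq2 called 1 lower and 1 higher, and 1 was lower and 2 higher at an unadjusted p under 0.05. The gene that fell was the urea cycle gene Cps1 (log2 fold change -0.64 ± 0.14, SE). Hp, the haptoglobin gene, named after its values were seen, had 235, 106 and 86.6 CPM in aging replicates 2, 3 and 5, against 47.6, 57.9 and 25.3 CPM in control replicates 1, 2 and 3. Its groups did not overlap, at a log2 fold change of 1.71 ± 0.46 (SE; edgeR adjusted p = 0.0564). Over the 10 hepatocyte markers the median log2 fold change was -0.15, with 6 of them negative. Whether the RNA of Hp came from hepatocytes was not tested. Of 9 Kupffer cell markers none passed by edgeR, while 1 was lower by DESeq2 and 1 at an unadjusted p under 0.05; Timd4 had the smallest p (edgeR adjusted p = 0.0510).

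The authors' deposited table gives an FDR under 0.05 for 6 members: Reln, Rgs5, Dcn, Postn, Hand2 and Lum. Of the 7 members that fell here, 4 are among them; for Lrat, Vipr1 and Colec10 the authors' deposited table gives an FDR of 0.222, 0.317 and 0.275. The group values in the authors' deposited table were not those of the 3 libraries at hand. For 14 of the 32 members the deposited aging value lay above all 3 aging libraries, and for 1 below all 3. For Lrat the authors' deposited table gives 0.528 FPKM in aging, where the libraries had 0.34, 0.22 and 0.45 FPKM, and for Pdgfrb 0.15 FPKM, where the libraries had 0.04, 0.11 and 0.09 FPKM. The deposited control value lay above all 3 control libraries for no member and below all 3 for 3 members. Over the 11435 genes with a mean above 1 FPKM, the deposited value lay outside the 3 libraries for 25.4% in aging and 19.5% in control. How the authors made these group values, and from which libraries, is not given in the sources used here. The authors' FDR may therefore not rest on the same 6 libraries as the calls made here.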

How the data were processed

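Bulk RNA of mouse liver sinusoidal endothelial cells was measured in 6 libraries. Per the labels' protocols, RNA was extracted with Trizol, selected on oligo(dT) beads and made into Illumina libraries with a NEBNext kit. The submitters' processing notes name RSEM, HISAT2, Bowtie2, fastp 0.18.0 and StringTie 1.3.1 without saying what each did. The build, the annotation and the strand setting are not stated in the labels or headers, so reads of overlapping antisense genes cannot be told apart. Per the file headers, the deposited table holds a count and an FPKM value per gene and library. Its group values, a score of the authors on the FPKM scale, and its log2 fold change, p-value and FDR come from a comparison made by the authors and are used only where named.

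Groups follow the titles. Counts were tested in R 4.3.3 with edgeR 4.0.16 (low genes removed by filterByExpr at 10 counts per library and 15 in total, TMM scaling, robust quasi-likelihood fit with group as the only term). On counts simulated from these libraries with known changes, every call of a changed gene had the right sign, but the share of false calls was above the threshold of 0.05, so an adjusted p just under it is weak. DESeq2 1.42.0 was an alternative. The filter left 13096 of 22298 genes. The SE was obtained as |log2 fold change| over the root of the F statistic. CPM used TMM library sizes, and counting precision limits genes of few counts. No library was a repeat of another, since pairs within a group had a chi-square of 8.31 to 54.0 per degree of freedom. The members, classes and gene lists were chosen with earlier results of these data known. Members past the threshold, with groups that did not overlap, or with a mean of at least 10 CPM are given per library; of each other list, up to 4 genes past the threshold are named, or the one with the smallest p. Not every gene that the rule names is reported here. The activated members other than Postn, and Myh11, were given per library after their values were seen. Alternatives were other scaling (RLE, upper quartile), no filter, a replicate block, DESeq2 and each library left out.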

Additional observations from a re-analysis of the deposited data

How the results depend on the processing

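No called member changed direction in any of the 11 alternative fits. The number of members lower in aging was 6 with RLE factors, 7 with upper-quartile scaling, 6 with no filter, 7 with DESeq2 and 5 with a replicate block; no member was higher in any of these. With 1 library left out it ranged from 2 (without control replicate 2) to 6 (without aging replicate 5), with 4 without aging replicate 3, 3 without control replicate 1 and 4 without control replicate 3. Reln and Rgs5 passed in all 6 of these fits. Over all genes, leaving out 1 library gave 122 to 868 genes lower and 146 to 1253 higher in aging, and DESeq2 gave 992 lower and 1356 higher. These fits have fewer libraries and so less power, and where an arm kept a pair of libraries the spread was pooled.

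The replicate block paired numbers 2 and 3 only, and the numbers do not pair the libraries: same-numbered deviations correlated at -0.0611 and -0.0376. With the replicate block the log2 fold change changed sign for Des (0.086), Lox (0.0025), Mgp (0.15) and Gas6 (0.017), Dcn and Colec10 were no longer called (edgeR adjusted p = 0.0573 and 0.116), and 650 genes were lower and 1048 higher. With 1 library left out, the sign changed in at least 1 fit for Des (-0.30 to 0.24), Hgf (-0.24 to 0.059), Cygb (-0.38 to 0.19), Tagln (-0.35 to 0.46), Mgp (-0.74 to 0.058) and Gas6 (-0.21 to 0.067); none of these was called.

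The log2 ratio of quiescent to activated sums, aging minus control, was -0.30, and -1.07 with Hgf and Ecm1 left out and -0.56 with Postn left out, both chosen after seeing the data. It was -0.28 on FPKM, -0.41 as mean log2 values, -0.10 without the most abundant member of each class and -0.37 with Rgs5 and Pdgfrb as quiescent members. Leaving out 1 library gave -0.62 (without aging replicate 5) to 0.05 (without aging replicate 3). The 7 members below the filter, and the 13 members averaging under 1 CPM, are limited by few counts.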
